A study of Mus musculus with 41 samples.

Results

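The proteasome subunit genes were taken from the count table by a rule on names: rows of biotype protein_coding whose symbol was Psma, Psmb, Psmc, Psmd or Psme followed by a number, without Psmb8, Psmb9 and Psmb10. The rule found 40 of the 43346 genes in the table. These were 16 core genes (8 Psma and 8 Psmb) and 24 regulatory genes (6 Psmc, 14 Psmd and 4 Psme). RNA had been sequenced from tibiae of 41 female INK-ATTAC mice of C57BL/6 background, in which a p16Ink4a promoter drives a suicide gene that AP20187 (AP) switches on in p16-expressing cells, so that all 3 groups carried the transgene. The 12 young mice were labelled as 6 to 12 months old, of which the study's methods name the lower age alone, and as given vehicle. The 13 old vehicle mice and the 16 old AP mice were 20 months old when treatment began, and vehicle or AP at 10 mg per kg was then given on 2 days a week for 4 months. Marrow had been spun out of the tibiae by centrifugation, and the study's data statement names the tibia diaphysis. Each library came from the bone that was left and not from separated cells, so fewer cells of a type and less RNA per cell cannot be told apart. Young and old mice carried separate runs of mouse numbers and no batch was labelled, so age and a batch that followed it cannot be told apart.

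The proteasome is the protease that degrades most ubiquitin-tagged proteins of a cell. Its barrel-shaped core particle (20S) stacks rings of alpha subunits (Psma genes), which form the gate, and rings of beta subunits (Psmb genes), some of which cut. A regulatory particle (19S) caps the barrel: a base with a ring of ATPases (Psmc genes) unfolds the substrate and feeds it into the core, and a lid of non-ATPase subunits (most Psmd genes) holds the enzyme that removes the ubiquitin chain. Ubiquitin receptors sit in or beside the base. Psme genes encode other caps that open the core without ubiquitin. In bone, protein degradation by this complex takes part in osteoblast and osteoclast differentiation, and proteasome inhibitors are known to act on bone. In skeletal muscle, proteasome genes and muscle-specific ubiquitin ligases are known to rise together during atrophy.

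Levels are given as CPM, the count of a gene scaled to a library of fixed size by edgeR's TMM method. Total counts ran from 37028959 to 75942717 per mouse. Of the 40 members, 39 passed the filter on low counts, all but Psmb11. A gene passed the test at a Benjamini-Hochberg adjusted p under 0.05 in edgeR's quasi-likelihood test over all 19292 genes tested. For the main counts of members that passed, the number that also had an absolute log2 fold change above 0.5, the study's threshold, is given as well. For the marker and pathway lists it is not. Bone markers were present in every group: summed osteoblast markers ranged from 15215 to 41553 CPM in young, from 7097 to 40347 CPM in old vehicle and from 3069 to 32763 CPM in old AP mice. Skeletal muscle was present as well, with 12 marker genes summing to 20175 to 113777 CPM in young, 18185 to 143059 CPM in old vehicle and 9164 to 114383 CPM in old AP mice. No marker gene matched in the table was at 0 in all mice. One library stood apart on the subunit genes. Old vehicle mouse 16 had the highest value of its group for 29 of the 39 tested members, and its mean z-score over them was 2.38, against 1.46 in mouse 20, the next highest of the group. Mouse 16 also had the lowest summed erythroid, neutrophil, B cell, T cell, osteocyte and proliferation markers of the old vehicle mice (5012 CPM of neutrophil markers against a group median of 15419 CPM), so the main counts, the fold changes of the members and genes that passed in old vehicle against young mice and are described one by one, and the main correlations are also given without it. Scaling by total counts alone turned the calls over all genes in old vehicle against young from 1845 higher and 1891 lower to 1239 higher and 2340 lower, and in old AP against old vehicle from 13 and 20 to 1512 and 132.

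With their lengths taken into account, core and regulatory genes were expressed at levels of the same order. In young mice, the median CPM per kilobase of the length given in the count table (all exons joined) ran from 25.2 for Psma3 to 115 for Psmb1 over the 14 core genes other than Psma8 and Psmb11. Over the 17 subunits of the regulatory particle, the same measure ran from 13 for Psmd11 to 77.4 for Psmd8. Psmd5, Psmd9 and Psmd10, which are chaperones of base assembly rather than subunits of the finished particle, lay at or under the lowest of these, at 9.22, 5.77 and 12.9 CPM per kilobase. The order within the particles depended on the length used: with the longest principal transcript of GENCODE M21, Psmb6 (146) led the core genes, while Psma3 (34.5), Psmd11 (29) and the chaperones (7.86 to 13.3) kept their low places. Psma8, the testis form of an alpha subunit, had 0.775 CPM per kilobase. Its lowest, median and highest values were 1.04, 1.31 and 1.73 CPM in young, 0.829, 1.15 and 2.86 CPM in old vehicle and 0.779, 1.198 and 1.79 CPM in old AP mice, and its log2 fold change of -0.05 ± 0.16 (SE) between old vehicle and young mice did not pass the test (edgeR adjusted p = 0.872). Psmb11, the catalytic subunit of thymic epithelium, was near 0, with at most 1 read in a young mouse, 4 in an old vehicle mouse and 3 in an old AP mouse, and it was not tested. The tissue-restricted forms were thus read at a trace beside their common counterparts.

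In old vehicle against young mice, 11 of the 39 tested subunit genes were higher and 0 were lower. Over all genes tested, 9.56% were higher and 9.8% were lower. With the erythroid marker score in the model 3 members were higher (14.3% of all genes), Psmd3 alone of the 11 among them. With the B cell score Psmd3 alone was higher (3.56% of all genes). The core median turned to -0.02 and -0.03 in these fits. Most of the 11 were regulatory genes, although the difference between the particles was not tested. Of 15 core genes 1 rose (Psma6), and of 24 regulatory genes 10 rose (Psmc1, Psmc5, Psmd1, Psmd2, Psmd3, Psmd4, Psmd8, Psmd11, Psmd13 and Psmd14). All 10 were among the 17 subunits of the 19S particle itself, and the 3 assembly chaperones and the 4 activators held none. Psmd3 and Psmd11 also passed the study's fold threshold, against a background of 4.3% of genes. The sign was shared more widely than the calls: 36 of 39 log2 fold changes were above 0, against 51.1% of all genes, with a median of 0.15 over the members (0.12 in the core, 0.23 in the regulatory genes, 0.01 over all genes). Without mouse 16, 6 members were higher, against 8.21% of all genes (Psmc5, Psmd2, Psmd3, Psmd4, Psmd11 and Psmd13), 0 of them past the fold threshold, and the median was 0.11. Without mouse 16 and mouse 20 together, an exclusion chosen after the values were seen, 5 members were higher (7.57% of all genes), the core median was 0.01 and the regulatory median 0.12. Leaving out mouse 20 alone left 6 (8.99% of all genes), with 1 past the fold threshold.

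**Figure D1:**
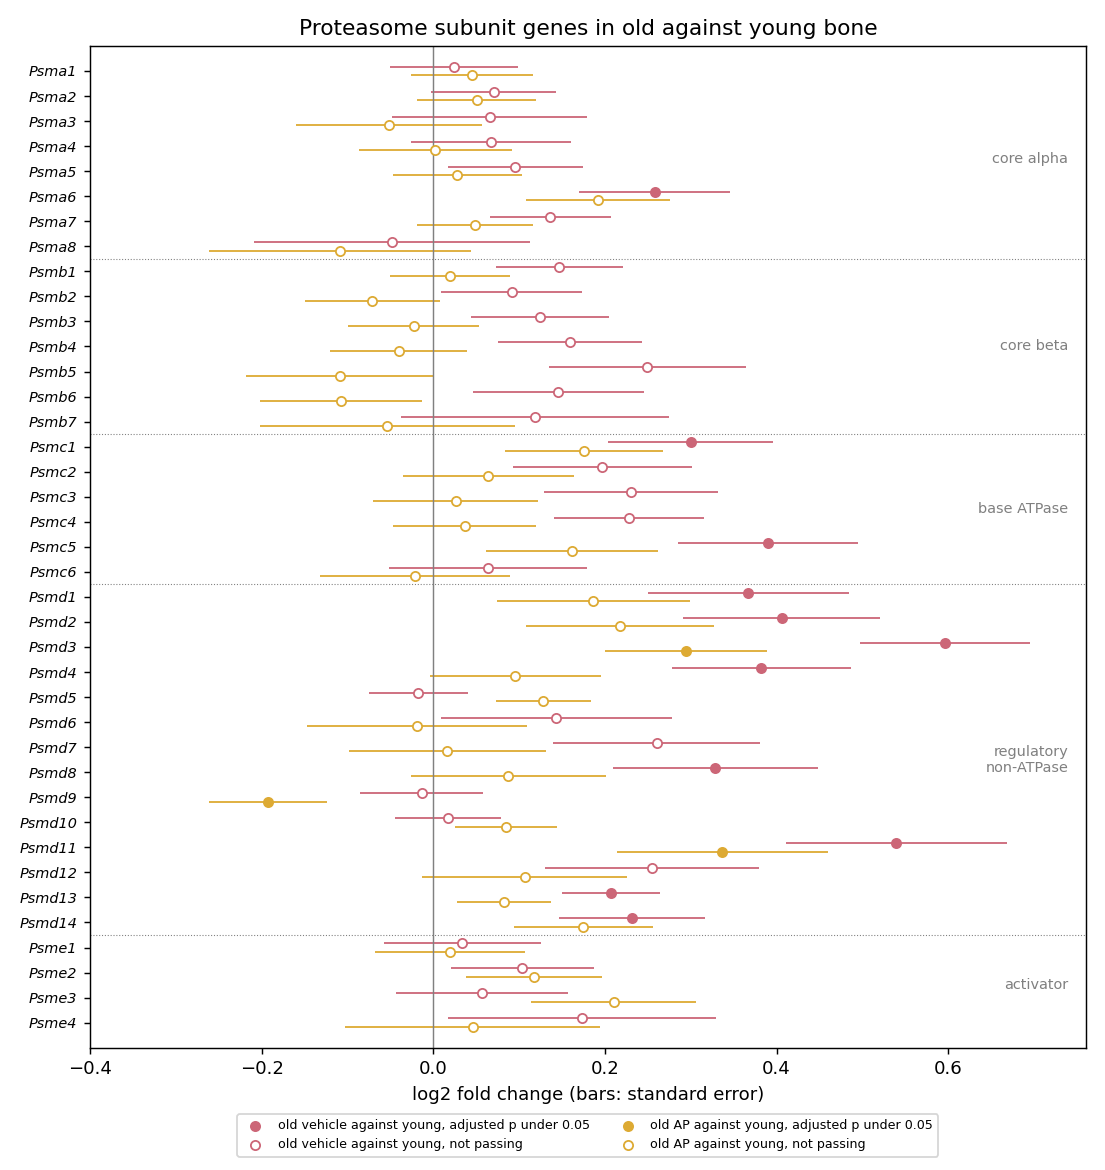
Log2 fold change (x axis, bars: standard error) of the 39 tested subunit genes (y axis, by class) in old vehicle and in old AP mice against the same 12 young mice. Filled points passed the test. The 10 filled regulatory points and the single filled core point of old vehicle mice lie to the right of 0, and most old AP points lie nearer to 0.

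The largest rise among the members was that of Psmd3 (ENSMUSG00000017221, chromosome 11, 98682554 to 98695979, GRCm38), a lid subunit. Its lowest, median and highest values were 70.0, 80.5 and 104 CPM in young, 97.4, 123 and 227 CPM in old vehicle and 76.0, 102 and 134 CPM in old AP mice. Of the 13 old vehicle mice, 13 were above the young median and 10 above the highest young mouse, so the groups overlapped only in their tails. The log2 fold change was 0.60 ± 0.10 (SE, adjusted p = 4.96e-05 in edgeR's quasi-likelihood test), and 0.50 (adjusted p = 3.17e-05) without mouse 16. Psmd11 (ENSMUSG00000017428, chromosome 11, 80428615 to 80473248), the lid subunit that clamps the lid to the core's alpha ring and the ATPases, followed. It was read at 58.7, 82.7 and 94.4 CPM in young, 73.3, 105 and 232 CPM in old vehicle and 72.1, 96.0 and 133 CPM in old AP mice. In the old vehicle group, 9 of 13 mice were above the highest young mouse, and mouse 16 had the highest value. The log2 fold change was 0.54 ± 0.13 (edgeR adjusted p = 0.00247), and 0.41 (adjusted p = 0.00546) without mouse 16.

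Psmd4 (chromosome 3, 95032694 to 95042614), one of the particle's ubiquitin receptors, ranged over 101, 120.0 and 162 CPM in young, 123, 153 and 281 CPM in old vehicle and 101, 128 and 168 CPM in old AP mice. All 13 old vehicle mice were above the young median, 5 of them above the highest young mouse. It rose by 0.38 ± 0.10 (edgeR adjusted p = 0.00792), and by 0.29 (adjusted p = 0.0197) without mouse 16. Psmd14 (chromosome 2, 61711694 to 61800376), the metalloprotease that cuts ubiquitin chains off the substrate, had lower counts and a smaller difference. Its values were 41.8, 52.4 and 65.4 CPM in young, 47.5, 59.3 and 96.6 CPM in old vehicle and 51.4, 59.2 and 70.7 CPM in old AP mice. The old groups had nearly the same median, and 11 of 13 old vehicle mice exceeded that of the young. The log2 fold change of 0.23 ± 0.09 passed narrowly (edgeR adjusted p = 0.0495), was 0.17 (adjusted p = 0.124) without mouse 16 and passed in 17 of 41 fits that each left out a mouse. The other risers of this class were Psmd2 (0.41), a large base scaffold that docks ubiquitin shuttle proteins, its partner scaffold Psmd1 (0.37), and the lid subunits Psmd8 (0.33) and Psmd13 (0.21). Of these, Psmd2 and Psmd13 passed in all 41 fits with a mouse left out, Psmd1 in 39 and Psmd8 in 22. Psmd6, Psmd7 and Psmd12, the remaining subunits of the lid that did not pass, had log2 fold changes of 0.14, 0.26 and 0.25. The chaperones Psmd5, Psmd9 and Psmd10 were at -0.02, -0.01 and 0.02, with standard errors of 0.06, 0.07 and 0.06, so that their estimates lay nearer to 0 than that of any of the 17 subunits.

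**Figure D2:**
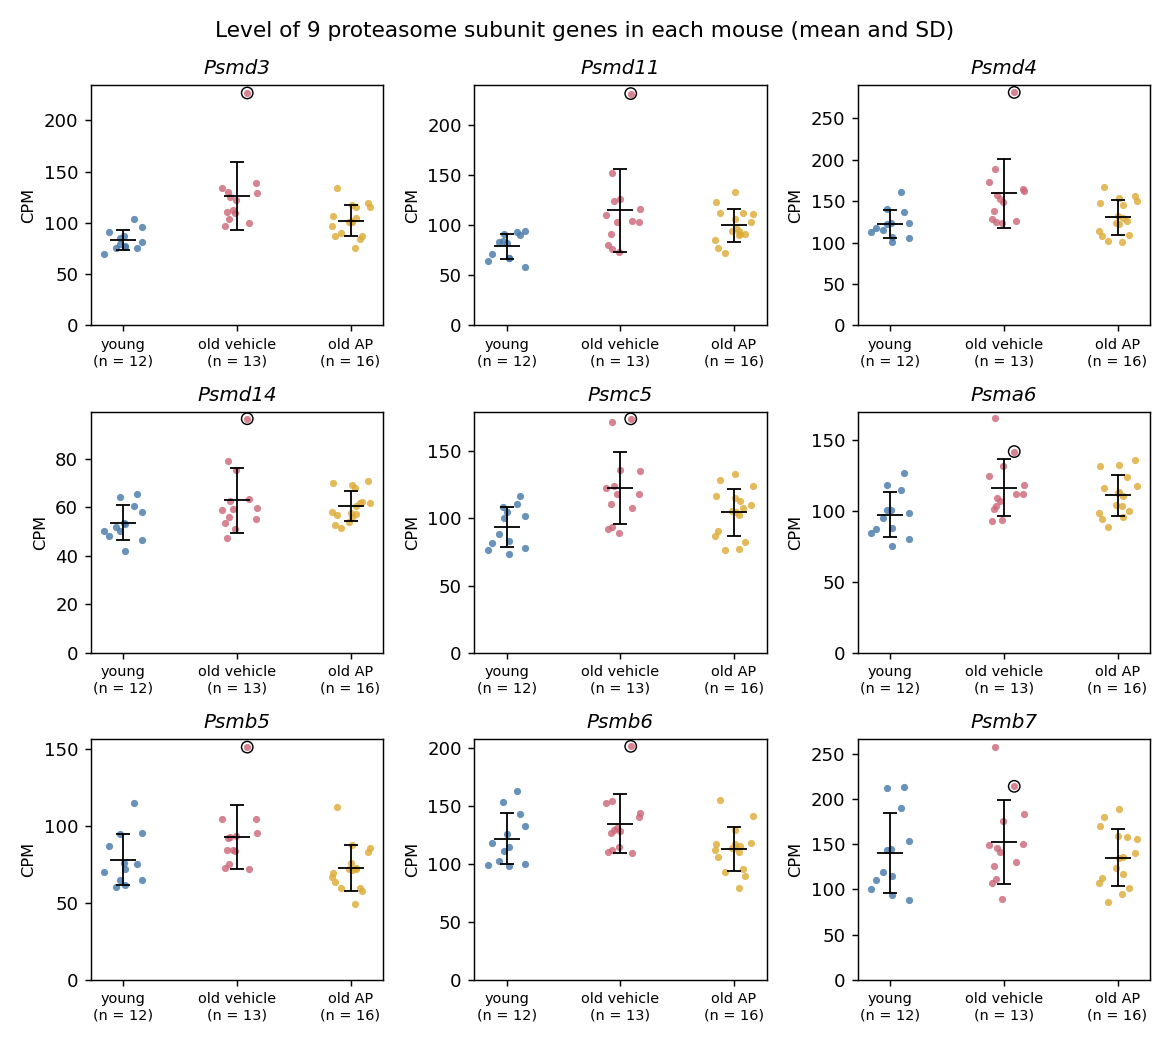
CPM (y axis, from 0) of 9 subunit genes in each mouse of the 3 groups, with the mean and SD in black. The ringed point is old vehicle mouse 16. In Psmd3, 10 of 13 old vehicle mice lie above the highest young mouse, while in Psmb5 and Psmb6 that holds for mouse 16 alone.

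All 6 ATPase genes of the base had log2 fold changes above 0 in old vehicle mice, and 2 rose. Psmc5 (chromosome 11, 106256154 to 106263120) was read at 73.8, 94.2 and 117 CPM in young, 89.5, 118 and 174 CPM in old vehicle and 76.5, 107 and 133 CPM in old AP mice. Of the old vehicle mice, 8 of 13 exceeded the highest young mouse. Its log2 fold change was 0.39 ± 0.11 (edgeR adjusted p = 0.007), and 0.34 (adjusted p = 0.0176) without mouse 16. Psmc1 (chromosome 12, 100110186 to 100123364), whose tail takes part in opening the core gate, ranged over 86.7, 109 and 143 CPM in young, 101, 131 and 209 CPM in old vehicle and 102, 126 and 155 CPM in old AP mice. It rose by 0.30 ± 0.10 (edgeR adjusted p = 0.0237), and its log2 fold change was 0.24 (adjusted p = 0.0594) without mouse 16. Psmc2, Psmc3 and Psmc4 lay between 0.20 and 0.23, and Psmc6 was at 0.06, without passing.

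Fewer core genes passed. Psma6 (chromosome 12, 55384222 to 55418454), an alpha subunit, was the core gene that rose: its values were 75.1, 96.9 and 127 CPM in young, 92.9, 112 and 165 CPM in old vehicle and 89.1, 112 and 136 CPM in old AP mice. The young median was exceeded by 11 of 13 old vehicle and 13 of 16 old AP mice. Its log2 fold change was 0.26 ± 0.09 (edgeR adjusted p = 0.0332), and it passed in 33 of 41 fits that each left out a mouse. Among the fits in which it did not pass, the estimate was 0.21 without mouse 20 (adjusted p = 0.0757) and 0.23 without mouse 16 (adjusted p = 0.0639). Psma7, the alpha gene next in order, was at 85.8, 99.4 and 124 CPM in young, 92.7, 108 and 169 CPM in old vehicle and 92.3, 105 and 126 CPM in old AP mice, with a log2 fold change of 0.14 ± 0.07 (edgeR adjusted p = 0.18). The other common alpha genes lay between 0.02 (Psma1) and 0.10 (Psma5). None of the 7 tested beta genes passed, although all 7 estimates were above 0. The chymotrypsin-like subunit Psmb5 (chromosome 14, 54614120 to 54617995) was read at 60.3, 73.7 and 115 CPM in young, 72.0, 91.9 and 151 CPM in old vehicle and 49.3, 71.5 and 112 CPM in old AP mice, with a log2 fold change of 0.25 ± 0.11 (edgeR adjusted p = 0.125). The young median of Psmb5 was exceeded by 11 of 13 old vehicle mice, but the highest young mouse by 1. For the caspase-like subunit Psmb6 (chromosome 11, 70525367 to 70527858), the values were 98.1, 116 and 163 CPM in young, 109, 129 and 202 CPM in old vehicle and 79.5, 114 and 156 CPM in old AP mice, and the log2 fold change was 0.15 ± 0.10 (edgeR adjusted p = 0.323). The trypsin-like subunit Psmb7 (chromosome 2, 38588036 to 38644087) had 88.0, 131 and 214 CPM in young, 89.4, 145 and 258 CPM in old vehicle and 86.0, 135 and 189 CPM in old AP mice, and a log2 fold change of 0.12 ± 0.16 (edgeR adjusted p = 0.648). Old vehicle mice above the highest young mouse were thus few for the 3 catalytic genes (1, 1 and 2 of 13), while 9 of 16 old AP mice were below the lowest old vehicle mouse for Psmb5, 5 for Psmb6 and 1 for Psmb7. The spread of Psmb7 within each group was the widest of the 3. The structural subunit Psmb1 had 103, 119.6 and 151 CPM in young, 110.3, 134 and 200.02 CPM in old vehicle and 107, 124 and 147 CPM in old AP mice. Its log2 fold change was 0.15 ± 0.07 (edgeR adjusted p = 0.166), and Psmb2, Psmb3 and Psmb4 lay between 0.09 and 0.16.

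None of the 4 activator genes passed in any comparison in the model of the groups alone. Psme1 and Psme2 encode PA28 alpha and beta, which form an interferon-inducible cap. Psme1 was read at 70.2, 79.7 and 93.6 CPM in young, 55.8, 80.4 and 109 CPM in old vehicle and 64.7, 80.4 and 123 CPM in old AP mice. For Psme2 the values were 54.0, 67.1 and 75.4 CPM in young, 53.9, 73.5 and 89.6 CPM in old vehicle and 57.7, 70.9 and 108 CPM in old AP mice. Their log2 fold changes in old vehicle against young mice were 0.03 ± 0.09 (edgeR adjusted p = 0.841) and 0.10 ± 0.08 (edgeR adjusted p = 0.414). Psme3, the nuclear PA28 gamma, had 87.7, 107 and 145 CPM in young, 84.1, 112 and 133 CPM in old vehicle and 91.0, 123 and 194 CPM in old AP mice. Its old vehicle mice stayed within the young maximum, and the log2 fold change was 0.06 ± 0.10 (edgeR adjusted p = 0.745). Psme4, the PA200 cap, had 116, 168 and 228 CPM in young, 99.5, 176 and 354 CPM in old vehicle and 118, 168 and 262 CPM in old AP mice. The log2 fold change was 0.17 ± 0.16 (edgeR adjusted p = 0.474), with the widest standard error of the 4. The immunoproteasome subunits Psmb8, Psmb9 and Psmb10, which replace the catalytic beta subunits in immune cells and are no members here, had log2 fold changes of 0.27, 0.34 and 0.06 in old vehicle against young mice, and 0 of 3 passed.

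Because each mouse gives both particles, the regulatory genes could be set against the core genes within a library, where the scaling between libraries nearly cancels. The measure was the mean log2 CPM of the 17 subunits of the 19S particle minus that of the 14 common core subunits, relative to the young mean. In young mice it ran from -0.08 to 0.08 with a median of 0.00. The old vehicle mice ran from -0.01 to 0.32 with a median of 0.14, and 11 of 13 were above the highest young mouse. In old AP mice it ran from 0.04 to 0.19 with a median of 0.14, and 11 of 16 were above the highest young mouse. The spread within groups of this difference (SD of 0.05, 0.10 and 0.06) was smaller than that of either particle alone (0.23, 0.32 and 0.20 for the 19S subunits, 0.23, 0.23 and 0.15 for the core subunits). Mouse 16 and mouse 20 had the highest differences of the old vehicle mice, at 0.32 and 0.31, but the next 9 mice were also above the young range, and mice 6 and 7 were within it. The medians of the old groups were thus equal to 2 decimals in this balance, while those of the particles themselves were 0.27 (19S) and 0.09 (core without Psma8) in old vehicle and 0.12 and -0.01 in old AP mice. The means of the balance were less alike, at 0.16 in old vehicle and 0.12 in old AP mice. The balance is given as a description, without a test, since the particles were set apart with results of the members known.

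**Figure D3:**
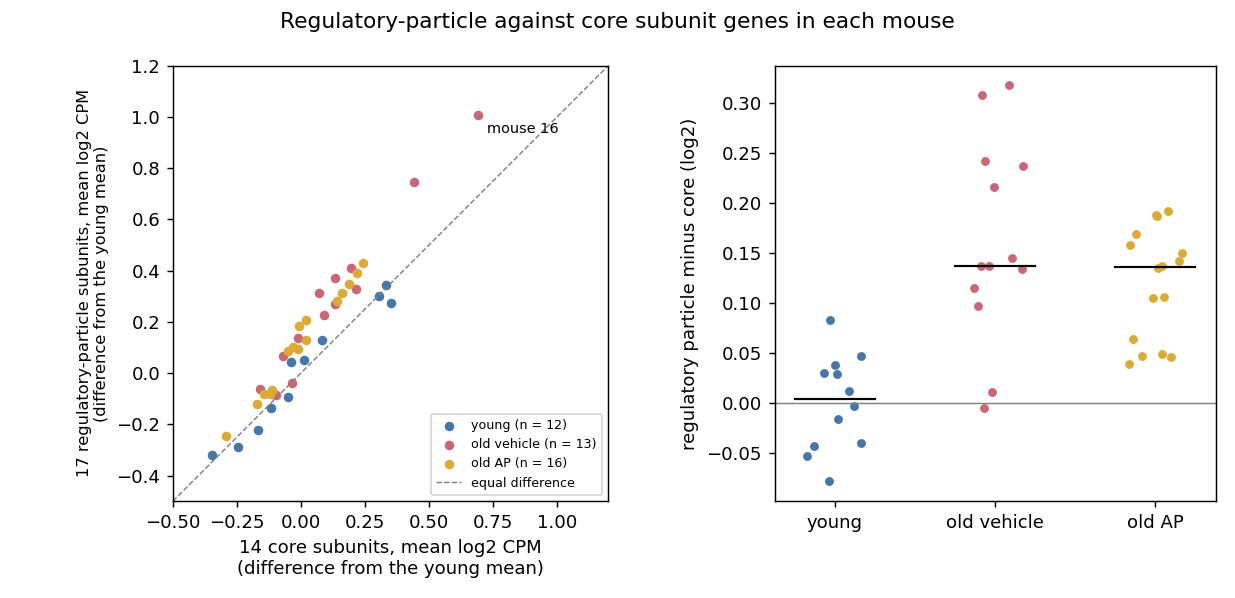
Left, mean log2 CPM of 17 regulatory-particle subunits (y axis) against 14 core subunits (x axis) in each mouse, both as the difference from the young mean, with a dashed line of equal difference. Right, the regulatory particle minus the core (log2) by group, with the median as a bar: 11 of 13 old vehicle and 11 of 16 old AP mice lie above the highest young mouse.

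In old AP against young mice, with the same young mice as in the comparison above, 2 of 39 members were higher (Psmd3 and Psmd11) and 1 was lower (Psmd9), against 9.15% and 8.66% of all genes, so that both shares were below the background. None passed the fold threshold, which 8.58% of genes did in either direction. Psmd3 was higher by 0.29 ± 0.09 (edgeR adjusted p = 0.0266), with 15 of 16 old AP mice above the young median. Psmd11 was higher by 0.34 ± 0.12 (edgeR adjusted p = 0.0499), at the edge of the threshold. The chaperone Psmd9 was read at 22.1, 26.3 and 33.7 CPM in young, 22.8, 26.8 and 31.7 CPM in old vehicle and 19.8, 23.1 and 32.6 CPM in old AP mice. Only 2 of 16 old AP mice exceeded its young median, and its log2 fold change was -0.19 ± 0.07 (edgeR adjusted p = 0.0445). That call was lost in 13 of 41 fits with a mouse left out, and also with total counts only, without the filter, in the model of 2 groups, with the neutrophil score, and with the neutrophil or the erythroid score when mouse 16 was also left out (adjusted p from 0.0527 to 0.133), at estimates of -0.20 to -0.16. The median log2 fold change was 0.05 over the members, 0.09 in the regulatory and -0.02 in the core genes, against 0.02 over all genes, and 6 of the 7 tested beta genes had estimates below 0. Without young mouse 39, 0 members were higher, against 7.98% of all genes. With the erythroid score in the model Psmd3 (adjusted p = 0.0544) and Psmd11 (adjusted p = 0.0949) no longer passed, and both passed again when mouse 16 was also left out (adjusted p = 0.00836 and 0.0266). Neither passed with the B cell score (adjusted p = 0.154 and 0.221) or without the filter on low counts (0.0501 and 0.0798), and with the B cell score and mouse 16 left out Psmd3 passed (0.04) and Psmd11 did not (0.0825). In the same comparison, 4 of 6 T cell markers (median 1.09) and 2 of 10 neutrophil markers were higher, and 5 of 7 osteoblast (median -0.72), 2 of 9 B cell and 2 of 9 erythroid markers were lower. The part of these cells in the calls was not tested beyond the fits with a marker score.

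In old AP against old vehicle mice, which shares both groups with the comparisons above, 0 of 39 members passed in edgeR's test, and 0.171% of all genes (33 of 19292) did. At an unadjusted p under 0.05 there were 14, of which 13 were lower and 1 was higher, where 23.9% of all genes were (14.6% higher and 9.36% lower). DESeq2 called 2 lower (Psmb5 and Psmd3) where it called 535 higher (1.66%) and 371 lower (1.15%) over the 32309 genes it was run on. Without mouse 16, 0 members and 0 genes in all passed in edgeR's test. The estimates leaned to one side: 34 of 39 were below 0, with a median of -0.13, against -0.0037 over all genes. Estimates for markers of other cells leaned as well in the same comparison, none of them past the test. All 12 skeletal muscle markers had estimates below 0 (median -0.43), while all 9 B cell markers (0.46), 7 of 9 erythroid markers (0.45) and all 6 proliferation markers (0.49) had estimates above 0. With mouse 16 left out and the skeletal muscle score in the model, an alternative added after the data were seen, the members' median was 0.03. Psmb5 had the largest difference, -0.36 ± 0.11 (edgeR adjusted p = 0.0661), and 15 of 16 old AP mice were below the old vehicle median. For Psmd3 the log2 fold change was -0.30 ± 0.09 (edgeR adjusted p = 0.0691), also with 15 of 16 mice below that median. Psmd4 was at -0.29 ± 0.10 (edgeR adjusted p = 0.0855) and Psmb6 at -0.25 ± 0.09 (edgeR adjusted p = 0.102). The call depended on single mice, for the members as for all genes: without old AP mouse 9, 4 members were lower and 1 was higher (all genes: 657 lower and 943 higher), without old vehicle mouse 2 there were 3 lower (457 lower, 757 higher), and without old vehicle mouse 14 (166 lower, 237 higher) or old AP mouse 10 (310 lower, 582 higher) there were 2. Without mouse 16 the log2 fold changes of Psmb5 and Psmd3 were -0.28 and -0.20, the median was -0.08, and without mice 16 and 20 it was -0.02. Scaled by total counts alone, the members' median was -0.02, beside a median of 0.10 over all genes.

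The subunit genes varied together from mouse to mouse, apart from a few. Across the 41 mice, the mean Pearson r of log2 CPM between pairs was 0.87 over the 17 subunits of the 19S particle, 0.78 over the 14 common core genes and 0.79 between the particles. Over all tested genes the mean was 0.00. After the group means were subtracted, these were 0.87, 0.80 and 0.82, so the values changed little once the differences between groups were removed. Over all 39 members the mean was 0.51, and within the young, old vehicle and old AP mice it was 0.56, 0.54 and 0.44. Without mouse 16, the means over the other 40 mice were 0.83 over the 19S subunits, 0.74 over the core genes, 0.74 between the particles and 0.47 over all members. The closest pair was Psmc3 and Psmd7 (r = 0.98), an ATPase and the lid partner of Psmd14. With the mean of the other members, 32 genes had an r above 0.7, from 0.71 (Psmd3) to 0.97 (Psmc2). The 7 others were Psmd9 (0.16), Psma8 (0.05), Psmd5 (0.04), Psmd10 (-0.08), Psme3 (-0.16), Psme2 (-0.31) and Psme1 (-0.41): the base chaperones, the testis subunit and the PA28 caps. Psme1 and Psme2 followed each other (r = 0.89) and opposed Psme4 (r of -0.75 for Psme1). These values are descriptions over mice whose summed cell type markers, given above and below, also varied, and are given without a test.

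**Figure D4:**
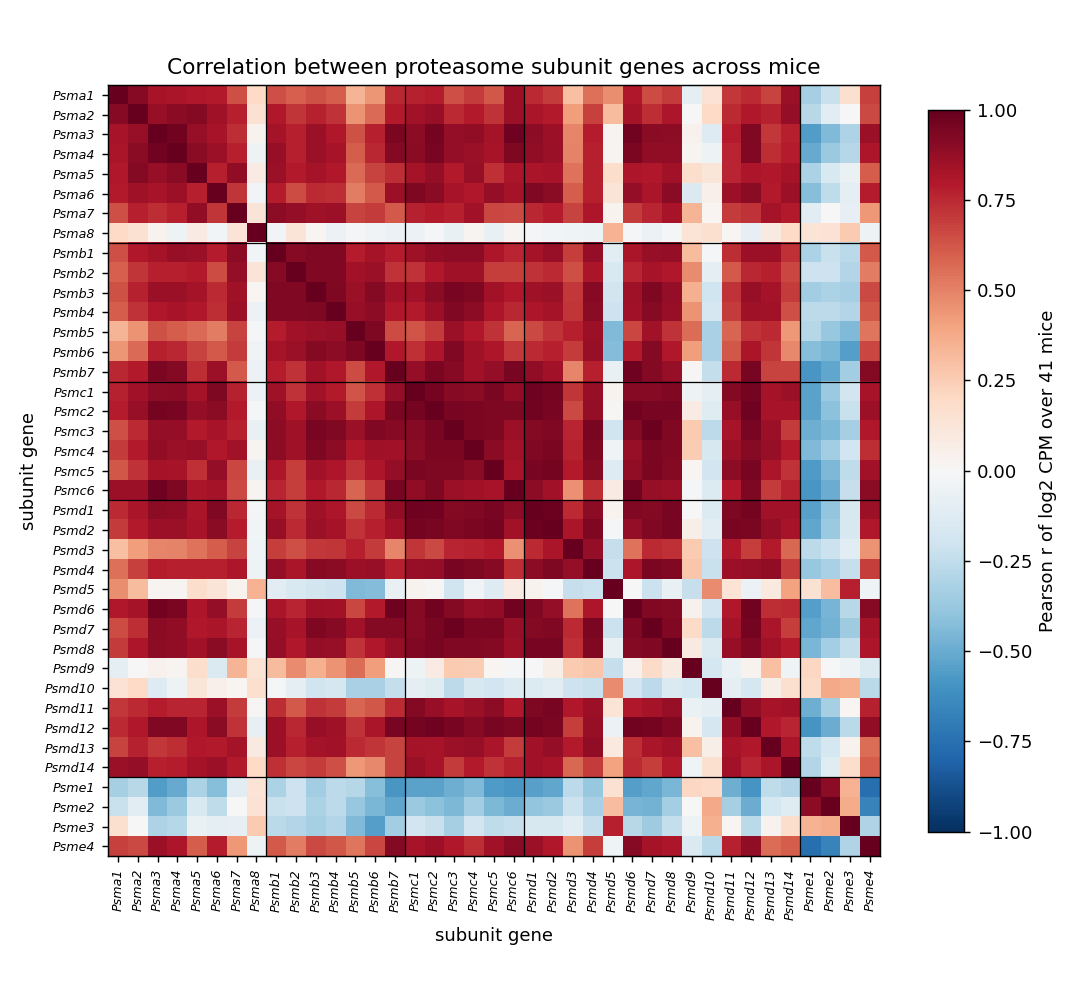
Pearson r of log2 CPM over 41 mice between each pair of the 39 tested subunit genes, in the order of the classes with black lines between them. The common core and 19S genes form one red block, crossed by pale or blue lines at Psma8, Psmd5, Psmd9, Psmd10 and Psme1 to Psme3.

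Among 15438 other genes with a mean of at least 1 CPM, those most like the members' mean z-score over the 41 mice were Cct6a (r = 0.94), Prmt1 (0.93), Vcp (0.92), Txnl1 (0.92), Lap3 (0.92), Eif3c (0.91), Mrps18b (0.91), Kars (0.91), Tcp1 (0.91) and Ube2l3 (0.90). Cct6a and Tcp1 encode subunits of the chaperonin TRiC, Vcp the ATPase p97 that extracts ubiquitinated proteins for the proteasome, Txnl1 a thioredoxin-like protein bound to the 19S particle, and Ube2l3 a ubiquitin-conjugating enzyme. Rad23b, a shuttle of ubiquitinated proteins, ranked 15th (0.90) and Pomp, the maturation protein of the core, 87th (0.86). Without mouse 16 the r of these 12 genes lay between 0.86 and 0.91. Of the 7 lists around the proteasome, the one on bringing substrates to it held the most calls. Of 10 genes of ubiquitin activation and shuttling, 7 were higher and 1 was lower in old vehicle against young mice (9.56% and 9.8% of all genes), with a median of 0.29. Nploc4, a cofactor of p97, rose by 0.52 (edgeR adjusted p = 0.000233) and Ubqln1, a shuttle, by 0.28 (adjusted p = 4.72e-05), and without mouse 16 these were 0.42 and 0.24 (adjusted p = 0.000187 and 4.74e-05). In old AP against young mice 4 of the 10 were higher and 0 were lower (9.15% and 8.66% of all genes). The groups overlapped little in Ubqln1, which was at 63.9, 67.9 and 73.9 CPM in young and 71.1, 81.1 and 106 CPM in old vehicle mice, of which 12 of 13 were above the highest young mouse.

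Of 11 subunits with other names and bound factors, 1 was higher in old vehicle against young mice, a share near the 9.56% of all genes: Adrm1, a ubiquitin receptor of the 19S base, which is a proteasome subunit outside the naming rule, at 32.9, 38.98 and 55.6 CPM in young, 41.4, 52.4 and 118 CPM in old vehicle and 35.03, 44.5 and 58.6 CPM in old AP mice. All 13 old vehicle mice exceeded its young median, and the log2 fold change was 0.50 ± 0.12 (edgeR adjusted p = 0.00239), and 0.37 (adjusted p = 0.0043) without mouse 16. The small 19S subunit Sem1, listed under its older symbol Shfm1, was at -0.07 in old vehicle against young and was lower in old AP against young mice (-0.23, edgeR adjusted p = 0.00639). None of the 5 matched assembly factors of the core (Psmg1 to Psmg4 and Pomp) passed in any comparison, with log2 fold changes of 0.03 to 0.12 in old vehicle against young mice. Of the 4 ubiquitin genes, 0 passed in old vehicle against young, and Ubb was lower in old AP against young mice (-0.17, adjusted p = 0.0339).

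Nfe2l1 (chromosome 11, 96817414 to 96829968) encodes Nrf1, the transcription factor known to raise proteasome genes when proteasome activity is short. It had the largest change among the 7 tested genes of proteasome gene transcription, and the others did not pass. Its values were 216, 373 and 571 CPM in young, 361, 772 and 1196 CPM in old vehicle and 213, 575 and 956 CPM in old AP mice. Of the old vehicle mice, 10 of 13 were above the highest young mouse, and the median of the old AP mice lay between those of the other groups. The log2 fold change was 0.93 ± 0.21 in old vehicle against young (edgeR adjusted p = 0.00178, and 0.85 with adjusted p = 0.00443 without mouse 16) and 0.53 ± 0.20 in old AP against young mice (adjusted p = 0.0641). Nfe2l2, which encodes the oxidative stress factor Nrf2, was at 0.02, and Ddi2 and Ngly1, whose products process Nrf1, were at 0.04 and -0.01. The r of Nfe2l1 with the members' mean was 0.79 (rank 478 of 15438 genes), and that of Nfya, a subunit of the CCAAT-binding factor NF-Y, was -0.66 (0.78 and -0.62 without mouse 16). The other NF-Y subunits did not share the sign of Nfya, with an r of 0.05 for Nfyb and 0.35 for Nfyc.

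Nrf1 and Nrf2 bind antioxidant response elements, and NF-Y binds CCAAT boxes, so the promoter windows of the members (250 bases before to 50 after a RefSeq start, GRCm38.p6) were searched on both strands for the element's core TGACNNNGC and for CCAAT. Of the 40 members, 33 had a window, and a match in any window of a gene was counted. The element's core was in 6 of them (18.2%; Psmb5, Psmb6, Psmc6, Psmd9, Psmd12 and Psme4), against 14% of 27025 genes with a window. CCAAT was in 13 of 33 (39.4%), against 41.1%. Of the 10 members with a window that rose in old vehicle mice, 0 held the element's core and 4 held CCAAT (Psma6, Psmc1, Psmd4 and Psmd14). The 100 bases before the start are shown, 5′ to 3′ on the strand of the gene, for the catalytic genes with a match, for the one member lower in old AP against young mice, and for 2 risers, with capitals marking a match (CCAAT reads ATTGG where it lies on the opposite strand).
Psmb5, chr14:54617996-54618095, minus strand: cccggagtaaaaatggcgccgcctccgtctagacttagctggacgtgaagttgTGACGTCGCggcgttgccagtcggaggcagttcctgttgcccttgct
Psmb6, chr11:70525257-70525356, plus strand: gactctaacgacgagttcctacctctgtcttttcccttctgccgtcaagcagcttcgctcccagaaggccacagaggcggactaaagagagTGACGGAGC
Psmd9, chr5:123228090-123228189, plus strand: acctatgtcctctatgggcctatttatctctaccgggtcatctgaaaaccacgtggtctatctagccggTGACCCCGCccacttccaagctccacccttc
Psmd4, chr3:95042615-95042714, minus strand: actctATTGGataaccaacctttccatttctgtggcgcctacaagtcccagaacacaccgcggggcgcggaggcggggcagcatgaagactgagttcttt
Psmd11, chr11:80428515-80428614, plus strand: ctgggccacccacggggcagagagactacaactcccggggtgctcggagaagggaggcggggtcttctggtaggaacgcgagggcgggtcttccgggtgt
In Psmb5 the match began 47 bases before the start, in Psmd9 it began 31 bases and in Psmb6 9 bases before it. The match shown for Psmd4 began 95 bases before its start, its window held 2 more CCAAT matches after the start, and Psmd11, a gene past the fold threshold, held neither in its window.

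Markers of other cells moved with the subunit genes. Over the 41 mice, the r of the members' mean z-score was 0.69 with the 12 skeletal muscle markers, -0.58 with the 9 B cell markers, -0.59 with the 9 matched erythroid markers and -0.47 with the 10 neutrophil markers, and after the group means were subtracted it was 0.70, -0.51, -0.53 and -0.60. Over the 40 mice other than mouse 16 it was 0.75, -0.51, -0.51 and -0.33. Over all 41 mice it was also below 0 with proliferation (-0.51), plasma cell (-0.45), osteoclast (-0.41), osteoblast (-0.40), macrophage (-0.34), T cell (-0.30) and osteocyte (-0.13) markers, and near 0 with adipocyte and endothelial cell markers (0.09 each). Over all mice it was 0.85 with the muscle ubiquitin ligases Fbxo32, Trim63, Fbxo30, Fbxo31 and Fbxo21, of which Fbxo31 was higher (0.93, edgeR adjusted p = 0.00409) and Fbxo30 lower (-0.32, adjusted p = 0.0475) in old vehicle against young mice. Without mouse 16 that r was 0.80, and the log2 fold changes were 0.71 for Fbxo31 (adjusted p = 0.0145) and -0.31 for Fbxo30 (adjusted p = 0.0714). Several of these lists differed between the groups. Of the B cell markers 7 of 9 were lower in old vehicle against young mice and of the erythroid markers 3 of 9, while 2 of 12 muscle markers were higher and 0 of 10 neutrophil markers passed, where 9.56% of all genes were higher and 9.8% lower. Without mouse 16 the B cell and erythroid counts were again 7 and 3, and 0 muscle markers were higher (Acta1 had an adjusted p of 0.0805 and Atp2a1 one of 0.0512). Of the bone lists, 3 of 7 osteoblast markers were lower, and of 6 osteocyte markers 2 were higher and 1 lower. Summed B cell markers ranged from 166 to 517 CPM in young, from 73.8 to 333 CPM in old vehicle and from 95.2 to 393 CPM in old AP mice, and summed erythroid markers from 5546 to 22313, from 2041 to 11868 and from 2520 to 19091 CPM. Summed neutrophil markers ranged from 8223 to 19748, from 5012 to 26071 and from 9028 to 34616 CPM.

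With a marker score added to the model, the count of members higher in old vehicle against young mice was 12 with skeletal muscle, 23 with neutrophils, 3 with erythroid cells and 1 with B cells. Over all genes, the shares higher in these fits were 14.8%, 18.4%, 14.3% and 3.56%, against 9.56% without a score, so the members' count moved against that of all genes with the erythroid score. With mouse 16 left out as well, an alternative added after the data were seen, the members' counts were 9, 21, 4 and 1 (14.7%, 19.3%, 14.5% and 3.8% of all genes). Psmd3 passed in all 8 of these fits, at log2 fold changes of 0.53, 0.67, 0.43 and 0.40 with all mice and 0.45, 0.59, 0.42 and 0.39 with mouse 16 left out. Psmd11 passed with muscle and neutrophils. Its adjusted p values (edgeR) were 0.0504 with erythroid cells and 0.184 with B cells, and 0.0335 and 0.121 with mouse 16 left out. With erythroid cells the higher members were Psmd3, Psme2 and Psme3, and in old AP against young mice they were Psme2, Psme3 and Psmd5. The median over the core genes turned to -0.02 with erythroid and to -0.03 with B cell markers, and that over the regulatory genes was 0.09 and 0.06. The balance of 19S over core genes had an r of 0.53 with the muscle, -0.55 with the B cell and -0.57 with the erythroid score, and of 0.67, -0.33 and -0.42 after the group means were subtracted. Without mouse 16 it was 0.52, -0.48 and -0.50. Other lists reached as far. With the group means subtracted, the r of the balance was -0.69 with plasma cell, -0.54 with macrophage and -0.51 with neutrophil markers, and 0.79 with the muscle ubiquitin ligases. With osteoblast markers it was -0.49 over the 41 mice and -0.55 without mouse 16, and with osteocyte markers it was 0.02 and 0.07. The part of these cells in the differences between groups was not tested further.

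**Figure D5:**
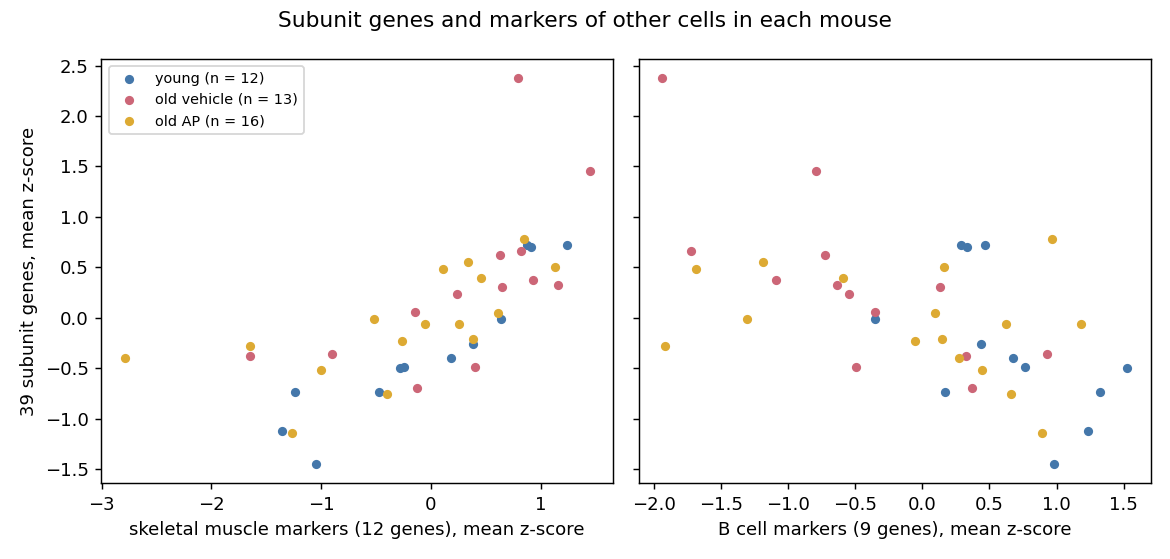
Mean z-score of the 39 subunit genes (y axis) against that of 12 skeletal muscle markers (left) and 9 B cell markers (right) in each mouse, by group. The subunit genes rise with the muscle markers (r = 0.69) and fall with the B cell markers (r = -0.58), and the highest old vehicle point, mouse 16, is the lowest of all mice on B cell markers.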

How the data were processed

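RNA of tibiae from 41 INK-ATTAC mice was sequenced on a HiSeq2000, and the authors deposited raw counts per gene, without normalization, in 1 table (GRCm38). Their processing notes name TopHat2 2.0.6 and HTSeq. The annotation release and the strand setting are not given in the sources used here, so overlapping genes, and reads shared with processed pseudogenes of subunit genes, are uncertain. Groups were taken from the labels. Nothing pairs mice across groups.

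Counts were analysed in R 4.3.3 with edgeR 4.0.16 (TMM, filterByExpr, quasi-likelihood test, one model of 3 groups, Benjamini-Hochberg adjustment over 19292 genes), and the scripts were tested on simulated data. DESeq2 1.42.0 was an alternative. Correlations and z-scores used log2 CPM with a prior count of 2, in Python 3.11.15 with NumPy 2.4.6 and pandas 2.3.3. Gene spans are those of the count table, and promoter sequences are from RefSeq (GRCm38.p6, 33 of 40 members matched by symbol). Of the listed pathway and marker genes, 2 were not matched in the table.

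The members and lists were chosen with earlier results of these data known. Members given in full were the catalytic subunits, the 2 of each class with the smallest adjusted p in old vehicle against young, the 4 with the smallest in old AP against old vehicle, any past both thresholds, the activators, Psma8, Psmb11 and Psmd14. Psmd9, Rad23b, Pomp, Shfm1, Ngly1, Nfya, Nfyb and Nfyc, and the single values of other members, were singled out after values were seen. Alternatives were other scalings, filters, models, marker scores as covariates, and each mouse left out.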

Additional observations from a re-analysis of the deposited data

How the results depend on the processing

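No fold change of a member that had passed reversed under any alternative run. Of 1353 values recomputed with 1 mouse left out, 1191 held, and so did 351 of 473 under the other settings. Held means that a tested value kept its direction and side of the threshold, or a count stayed within 1.5 times. A median held if it moved by less than 0.187, the SD between mice within groups. Apart from the regulatory median in old vehicle against young, the medians were smaller in size than that. They could thus reach 0 or change sign and still count as held, so the tally says little about them. In old vehicle against young, 9.56% of all genes were higher with all mice, 8.21% without mouse 16 and 8.99% without mouse 20. Members higher ranged from 6 (without mouse 16 or without mouse 20) to 14 with a mouse left out (core 0 to 2, regulatory 6 to 12, past the fold threshold 0 to 2). They numbered 23 (7 core, 16 regulatory) with the neutrophil score, 3 (0 core, 3 regulatory, 0 past the fold threshold) with the erythroid score, 1 (0 core, 1 regulatory, 0 past the fold threshold) with the B cell score, and 5 (0 core, 5 regulatory, 0 past the fold threshold) without mice 16 and 20. Over all genes, 18.4%, 14.3%, 3.56% and 7.57% were higher in these 4 fits, against 9.56% in the model of the groups alone. With mouse 16 left out as well, they numbered 21 (6 core) with the neutrophil score, 4 (0 core, 4 regulatory, 0 past the fold threshold) with the erythroid score, 1 (0 core, 1 regulatory, 0 past the fold threshold) with the B cell score, and with the muscle score 0 were past the fold threshold. The count past the fold threshold was 1 with total counts only and 1 with the muscle score. The median log2 fold change with a mouse left out ranged from 0.11 to 0.20 (core 0.07 to 0.16, regulatory 0.17 to 0.26), and the core median was -0.02 with the erythroid and -0.03 with the B cell score.

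In old AP against young, members higher ranged from 0 to 2 and lower from 0 to 1 with a mouse left out (9.15% and 8.66% of all genes with all mice). They were 6 higher and 0 lower with total counts only, 0 and 0 without the filter, 0 lower in the model of 2 groups, 9 higher with the muscle score, 13 higher (1 past the fold threshold) and 0 lower with the neutrophil score, 3 higher (Psme2, Psme3 and Psmd5, with the calls of Psmd3 and Psmd11 lost) and 2 lower with the erythroid score and 0 higher with the B cell score. Of all genes, 9.29% were higher with total counts only, 4.38% without the filter, 16% with the muscle, 11.5% with the neutrophil, 20.3% with the erythroid and 6.59% with the B cell score, against 9.15%. The shares lower were 6.38% with total counts only, 4.95% without the filter, 9.12% in the model of 2 groups, 9.28% with the neutrophil and 16.1% with the erythroid score, against 8.66%. With mouse 16 left out as well, 10 were higher with the muscle, 9 higher and 0 lower with the neutrophil, 5 higher with the erythroid and 1 higher with the B cell score (17.2%, 11.8%, 20.8% and 6.44% of all genes higher). The median was 0.02 to 0.07 with a mouse left out and -0.03 with either the erythroid or the B cell score. In old AP against old vehicle, 0 to 4 were lower and 0 to 1 higher with a mouse left out, and the median ranged from -0.16 to -0.08. DESeq2 called 2 lower (371 of 32309 genes, with 535 higher). In edgeR, total counts only gave 1 higher and 1 lower (1512 and 132 of all genes), and the neutrophil score gave 3 lower (371 of all genes, with 639 higher), and also 3 with mouse 16 left out (498 of all genes, with 926 higher), against 13 higher and 20 lower of all genes in the model of the groups alone. The fits that joined a score with the loss of mouse 16 were chosen after the data were seen. The causes of these shifts were not tested. A length of the longest RefSeq transcript was not run, since the RefSeq table gives gene spans, and the GENCODE length was added after the data were seen. No paired analysis was possible because the groups hold different mice and nothing in the labels pairs them. Psmb11 was too low to be tested, and without the filter it was among the 9 members higher in old vehicle against young mice (5.19% of all 32309 genes in that fit).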
